A study of Mus musculus with 6 samples.

Results

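The 10 genes of the disease-associated microglia (DAM) signature studied here, Apoe, Trem2, Lpl, Cst7, Itgax, Clec7a, Axl, Spp1, Gpnmb and Lgals3, were followed in TurboRFP-positive cells sorted from the mouse olfactory bulb. They were picked by symbol out of the 24421 genes listed in each library, and all 10 were among the 18413 genes that passed a minimum mean of 1 normalized count. Of the 10, 9 rose in the Sox9 KO libraries, by between 0.97 (Apoe) and 2.90 (Clec7a and Gpnmb) on the log2 scale. None fell, and Spp1 did not pass the test. Of all genes tested, 22.2% were called higher. Over the same libraries 15 genes shared by microglia and macrophages rose by a mean of 2.01 on the log2 scale. Set against those 15 genes, Clec7a, Gpnmb and Itgax were called higher and Apoe, Lpl, Axl and Spp1 lower. Trem2, Cst7 and Lgals3 were not called in either direction. On that relative scale 0.722% of all genes tested were called higher and 85.3% lower. Of these relative calls, those of Clec7a, Apoe and Axl held with each library left out in turn, whereas the Itgax call was lost in 5 of 6 such fits and the Gpnmb, Lpl and Spp1 calls in 4 of 6 each.

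Adult male mice received AAV-GFAP-iCre-P2a-TurboRFP, a virus in which a GFAP promoter drives Cre recombinase and a red fluorescent protein, in both olfactory bulbs. In Sox9fl/fl mice (Sox9 KO, 3 libraries) Cre removes the floxed Sox9 exons, and the C57BL/6J mice (control, genotype label WT, 3 libraries) got the same virus without a floxed allele. The strain label of all 6 is C57BL/6. Bulbs were dissociated 4 weeks after injection, TurboRFP-positive cells were sorted into lysis buffer, and total RNA was sequenced, so virus, Cre and reporter were shared by both groups. The deletion and any other difference between the mouse lines cannot be told apart. The libraries are labelled as olfactory bulb astrocytes. GFAP-driven reporters mark astrocytes, and the study states that the cells went straight into lysis buffer, so that their purity was judged from cell type markers in the RNA-seq and not by a check after the sort.

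The DAM signature is a program of genes first described in microglia near amyloid plaques, in which genes of surveying microglia are lowered while genes of lipid handling, phagocytosis and lysosomes are raised. Trem2, a receptor for lipids and lipoproteins that signals through the adaptor Tyrobp, is needed for the later stage of the program in such models, and the apolipoprotein Apoe is one of its ligands. In healthy brain most Apoe comes from astrocytes, whereas Trem2, Itgax and Clec7a belong to microglia and other myeloid cells.

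Sox9, the targeted transcription factor, read 5185, 6562 and 4921 normalized counts in the control libraries and 52.6, 64.3 and 57.7 in the KO libraries. All KO libraries lay below all control libraries, and the log2 fold change was -6.54 (limma adjusted p = 2.5e-09). Library depth ranged from 18242129 to 86906527 reads on genes, and 1 read was worth 0.395 to 1.58 normalized counts, and the lowest member value, 238 for Lgals3 in control replicate 1, stood for 163 reads. All 12 markers of astrocytes, the labelled cell type, fell, and their summed level was 481058 to 534885 in the control and 32580 to 41904 in the KO libraries. All 15 pan-microglia and macrophage genes rose, and their summed level was 182638 to 197175 in the control and 786571 to 906465 in the KO libraries. Fewer cells of a type and less RNA per cell cannot be told apart in bulk samples, nor can more cells and more RNA per cell. No library repeated another, and replicates of each group differed by more than counting noise. In the comparison as a whole 51.0% of the genes tested were called, at an adjusted p under 0.05 and at least 1.5-fold, in either direction.

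RefSeq start sites (GRCm38.p6) with a window of 250 bases before to 50 after were at hand for 9 of the 10 genes, in 13 windows. In all, 6 short motifs were searched on both strands, a palindromic match counting once: ETS core (PU.1) GAGGAA, AP-1 TGANTCA, E-box CACGTG, M-box TCATGTG, Sox core ACAANG and TATA box TATAAA. The AP-1 letters were found in Trem2, Cst7, Itgax and Gpnmb, and 7.81% of all 32851 windows held it. The ETS letters were found in Apoe, Axl, Clec7a, Spp1 and Trem2, against 28.3% of all windows. The Sox letters were found in Apoe, Axl, Gpnmb, Lgals3 and Spp1, against 41.25% of all windows, and the TATA letters in Apoe, Clec7a and Spp1, against 13.6%. The E-box and M-box letters, held by 7.15% and 3.77% of all windows, had no match in the members' windows. Among the members' windows 1 pair of matches overlapped, both of them TATA box letters in an Apoe window. The stretches from 110 bases before to 20 after the start of Trem2, Clec7a, Cst7, Itgax and Gpnmb, the 5 members with the largest rises, are given 5′ to 3′, with matches to the 6 motifs in capitals. A match is a description of the letters and was not tested for binding.
Trem2 (chr17:48346291-48346420, plus strand): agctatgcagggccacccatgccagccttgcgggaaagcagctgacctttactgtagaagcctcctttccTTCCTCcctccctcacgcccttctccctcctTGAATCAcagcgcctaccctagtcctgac
Clec7a (chr6:129472760-129472889, minus strand): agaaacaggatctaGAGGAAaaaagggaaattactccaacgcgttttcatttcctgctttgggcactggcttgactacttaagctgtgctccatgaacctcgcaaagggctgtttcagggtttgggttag
Cst7 (chr2:150570305-150570434, plus strand): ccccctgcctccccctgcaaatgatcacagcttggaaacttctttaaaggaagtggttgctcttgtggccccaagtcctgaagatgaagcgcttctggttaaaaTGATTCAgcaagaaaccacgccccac
Itgax (chr7:128129440-128129569, plus strand): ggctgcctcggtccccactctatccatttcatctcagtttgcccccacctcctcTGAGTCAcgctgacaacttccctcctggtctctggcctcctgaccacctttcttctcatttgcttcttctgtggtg
Gpnmb (chr6:49036408-49036537, plus strand): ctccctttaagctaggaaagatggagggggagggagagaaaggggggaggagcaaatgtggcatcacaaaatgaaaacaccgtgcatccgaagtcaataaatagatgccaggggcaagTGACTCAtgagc
The AP-1 match began at position -9 from the RefSeq start site in Trem2, -6 in Cst7, -56 in Itgax and 9 in Gpnmb. The RefSeq start used for Gpnmb lies upstream of the GENCODE gene start (49036546). Its printed stretch and AP-1 match therefore lie before the GENCODE start. In Clec7a the capitals are the GAGGAA match at position -96, and in Trem2 the upstream capitals are GAGGAA read on the other strand, at -40.

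Among the receptors, Trem2 (chr17:48346401-48354147, plus strand) read 3137, 2650 and 2101 normalized counts in the control libraries and 14278, 13421 and 14029 in the KO libraries. The groups lay far apart and the KO libraries were within 1.06-fold of each other. The log2 fold change was 2.42 with a standard error (SE) of 0.13 (limma adjusted p = 1.3e-07). Clec7a (chr6:129461591-129472779, minus strand) encodes dectin-1, a C-type lectin that binds beta-glucans, and is typed in GENCODE as a polymorphic pseudogene. It read 1770, 1776 and 1882 in the control libraries and 13421, 11625 and 15711 in the KO libraries. Its control libraries were the tightest of any member, with a coefficient of variation of 3.48%, and its mean was 7.51-fold higher in KO (log2 fold change 2.90, SE 0.11, limma adjusted p = 1.9e-08). Itgax (chr7:128129547-128150657, plus strand) encodes CD11c, the alpha chain of a beta2 integrin, and read 345, 685 and 925 against 3897, 3470 and 4383. The KO libraries all lay above the control libraries, which themselves spanned 2.68-fold, with control replicate 1 the lowest (log2 fold change 2.69, SE 0.29, limma adjusted p = 1.6e-05). Axl (chr7:25757273-25788705, minus strand), a receptor tyrosine kinase used with its ligand Gas6 in the uptake of apoptotic cells, read 9084, 9756 and 10025 against 26488, 21595 and 24685. Its groups did not overlap either, and the rise was the smallest of the 4 receptors (log2 fold change 1.33, SE 0.10, limma adjusted p = 1.3e-06).

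The lipid genes differed by less than Trem2, Clec7a or Itgax did. Apoe (chr7:19696109-19699188, minus strand), the main apolipoprotein of brain, read 143870, 137677 and 108080 normalized counts in the control libraries and 223876, 220435 and 327650 in the KO libraries. It was higher in every KO library than in any control library, by 0.97 on the log2 scale (SE 0.19, limma adjusted p = 0.0013), although all 12 astrocyte markers fell. How much of the Apoe signal in either group came from astrocytes or from myeloid cells was not tested. Under quantile normalization the Apoe difference was 0.45 (limma adjusted p = 0.068) and no longer passed. Lpl (chr8:68880491-68907448, plus strand), which releases fatty acids from lipoproteins, read 2313, 4048 and 1677 against 4870, 4892 and 9217. Control replicate 2 came close to the 2 lower KO libraries without reaching them, and the log2 fold change was 1.27 (SE 0.31, limma adjusted p = 0.0051).

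Among the secreted and lysosomal members, Cst7 (chr2:150570415-150578944, plus strand), which encodes cystatin F, an inhibitor of cysteine cathepsins, read 563, 1022 and 1029 against 2839, 3018 and 4890. The groups were well separated (log2 fold change 2.05, SE 0.25, limma adjusted p = 5.1e-05). Gpnmb (chr6:49036546-49070929, plus strand), a transmembrane glycoprotein of lysosome-rich macrophages, read 1290, 1737 and 1264 against 6136, 11418 and 16989. Its mean was 8.05-fold higher in KO, the widest ratio among the members, but the KO libraries spanned 2.77-fold, and the lowest was KO replicate 1 (log2 fold change 2.90, SE 0.30, limma adjusted p = 1.2e-05). Lgals3 (chr14:47367751-47386160, plus strand) encodes galectin-3, a galactoside-binding lectin, and read 238, 790 and 369 against 1153, 927 and 2061. Control replicate 2 lay just under KO replicate 2 (log2 fold change 1.66, SE 0.40, limma adjusted p = 0.0044). Spp1 (chr5:104435118-104441050, plus strand), which encodes the integrin ligand osteopontin, read 1489, 7730 and 3545 against 4714, 5557 and 10043. The groups overlapped, because control replicate 2 was above 2 of the KO libraries, and the log2 difference of 0.90 (SE 0.49) did not pass (limma adjusted p = 0.136). Without control replicate 2 the difference was 1.48 with an adjusted p of 0.022. GENCODE places 1 other gene model, Gm42793, over Spp1 on the same strand, and none over the other 9.

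**Figure D1:**
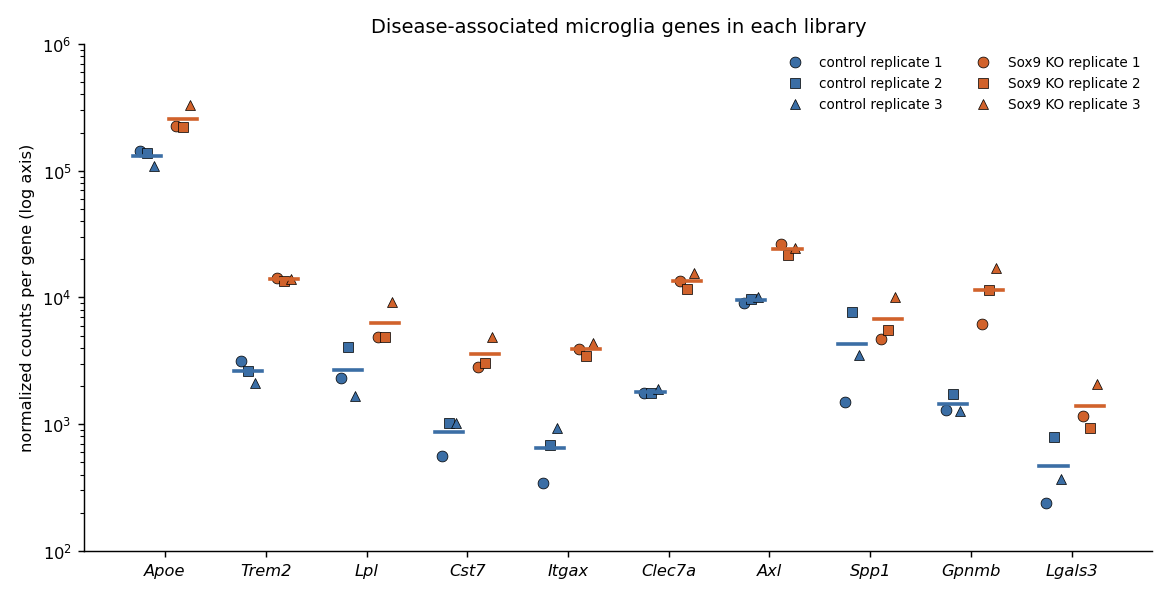
Normalized counts (log axis) of the 10 genes in each library, with circles, squares and triangles for replicates 1, 2 and 3, control in blue, Sox9 KO in orange and a bar at each group mean. In 9 genes every KO library lies above every control library, and in Spp1 the groups overlap.

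Taken by count, 9 of the 10 members were called higher and none lower, beside 22.2% of all genes tested called higher. Every KO library lay above every control library for 9 members, beside 32.4% of all genes tested. The median log2 fold change of the 10 was 1.85, and that of all genes tested was -0.07. Across 19 other settings and left-out libraries, 8 to 10 members were called higher. KO replicate 3 was the highest KO library in 8 of the 10, all but Trem2 and Axl, while the lowest was KO replicate 2 in 6 and KO replicate 1 in 4. Of the control libraries, replicate 1 was the lowest in 6 and the highest in 2, control replicate 3 the lowest in 4 and the highest in 4, and control replicate 2 the highest in 4 (Lpl, Spp1, Gpnmb and Lgals3). The median coefficient of variation over the members was 25.2% in the control and 27.7% in the KO libraries.

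Per kilobase of annotated exons, Apoe stood above every other member in both groups, at 60746 ± 8947 normalized counts per kb (SD, n = 3) in control and 120356 ± 28499 in KO. In control the order below it was Spp1 (2582 ± 1930), Axl (1912 ± 96.3), Cst7 (884 ± 271), Clec7a (686 ± 23.9), Trem2 (532 ± 105), Lpl (256 ± 117), Lgals3 (251 ± 155), Gpnmb (220 ± 40.8) and Itgax (136 ± 60.7). In that order the libraries of Spp1 and Axl overlapped, as did those of Cst7 and Clec7a, of Lpl and Lgals3 and of Lgals3 and Gpnmb. In KO the order was Clec7a (5150 ± 776), Axl (4819 ± 492), Spp1 (4109 ± 1738), Cst7 (3633 ± 1152), Trem2 (2812 ± 89.1), Gpnmb (1768 ± 833), Itgax (815 ± 95.1), Lgals3 (743 ± 323) and Lpl (604 ± 239). Clec7a went from rank 5 to rank 2 and Lpl from rank 7 to rank 10. In KO the libraries of neighbours overlapped from Clec7a through to Trem2 and from Itgax through to Lpl, so the order within each run was not larger than the spread.

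To ask whether a member moved more or less than genes common to microglia and macrophages, the mean log2 level of 15 such genes (among them Csf1r, C1qb and Ctss) was subtracted in each library and the fit was repeated. That mean was 12.95, 12.92 and 12.93 in the control libraries and 15.08, 14.87 and 14.88 in the KO libraries. On this relative scale 0.722% of all genes tested were called higher and 85.3% lower, and the median of all genes was -2.07. Before the subtraction that median was -0.07. In each library the same amount was subtracted from every gene. The shift therefore follows from the rise of the 15 genes, and a member near 0 rose about as much as their mean did. The 15 genes themselves rose by between 1.51 and 2.70 (Ctss) on the log2 scale. Ctss was itself called higher against their mean (0.69, limma adjusted p = 0.00047). The rises of Trem2, Cst7, Itgax and Lgals3 lay within the range of the 15 genes.

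Clec7a rose beyond the 15 genes by 0.89 on the log2 scale (SE 0.13, limma adjusted p = 3.7e-05), with relative levels of -2.16, -2.13 and -2.05 in control and -1.37, -1.36 and -0.94 in KO. It was the only member called higher whose groups did not overlap on this scale, and it passed with each library left out in turn (0.75 to 0.96). Trem2 exceeded the 15 genes by 0.42 (SE 0.14, limma adjusted p = 0.014), which is under 1.5-fold, and its groups did not overlap either (-1.34, -1.55 and -1.89 against -1.28, -1.16 and -1.10). With 1 library left out the Trem2 value ran from 0.27 to 0.54. The lowest was without control replicate 3 (limma adjusted p = 0.067). Gpnmb (0.90, SE 0.32, limma adjusted p = 0.021) and Itgax (0.69, SE 0.29, limma adjusted p = 0.040) were called higher, but the groups overlapped. The Gpnmb call was lost without control replicate 1 (0.82), control replicate 3 (0.82), KO replicate 2 (0.81) or KO replicate 3 (0.52), and the value was 1.36 without KO replicate 1. The Itgax call was lost without control replicate 1 (0.28), control replicate 2 (0.78), KO replicate 1 (0.75), KO replicate 2 (0.73) or KO replicate 3 (0.57).

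Apoe rose less than the 15 genes, with a relative log2 difference of -1.03 (SE 0.22, limma adjusted p = 0.00084), with relative levels of 4.18, 4.15 and 3.79 in control and 2.69, 2.88 and 3.45 in KO. Axl also rose less, with a difference of -0.68 (SE 0.11, limma adjusted p = 7.9e-05) and relative levels of 0.20, 0.33 and 0.36 against -0.38, -0.47 and -0.28. Neither overlapped between the groups, and both calls held with each library left out. Lpl (-0.74, limma adjusted p = 0.047) and Spp1 (-1.11, limma adjusted p = 0.0485) were called lower with overlapping groups. The Lpl call was lost without control replicate 1 (-0.80), control replicate 2 (-0.39), KO replicate 1 (-0.52) or KO replicate 2 (-0.62), and with the replicate number as a block (adjusted p = 0.052). The Spp1 call was lost without control replicate 2 (-0.52), control replicate 3 (-1.09), KO replicate 1 (-0.82) or KO replicate 2 (-1.04), and the value was -1.72 without control replicate 1. Cst7 (0.04, SE 0.27, limma adjusted p = 0.887) and Lgals3 (-0.35, SE 0.40, limma adjusted p = 0.419) passed in neither direction.

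The set of reference genes mattered. Against 12 homeostatic microglia genes in place of the 15, Trem2 was called higher (0.84, limma adjusted p = 3.0e-04), while Apoe (-0.61, adjusted p = 0.086) and Axl (-0.25, adjusted p = 0.240) were no longer called lower. Against 10 border macrophage genes, of which 3 rose and 5 fell (median log2 fold change -0.54), all 10 members were called higher. Subtracting that list raised the difference of every gene tested, member or not. The share of all genes called against the homeostatic or the border list is not given here, so these counts have no background beside them. Clec7a, Itgax and Gpnmb were called higher against each of the 3 reference lists.

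**Figure D2:**
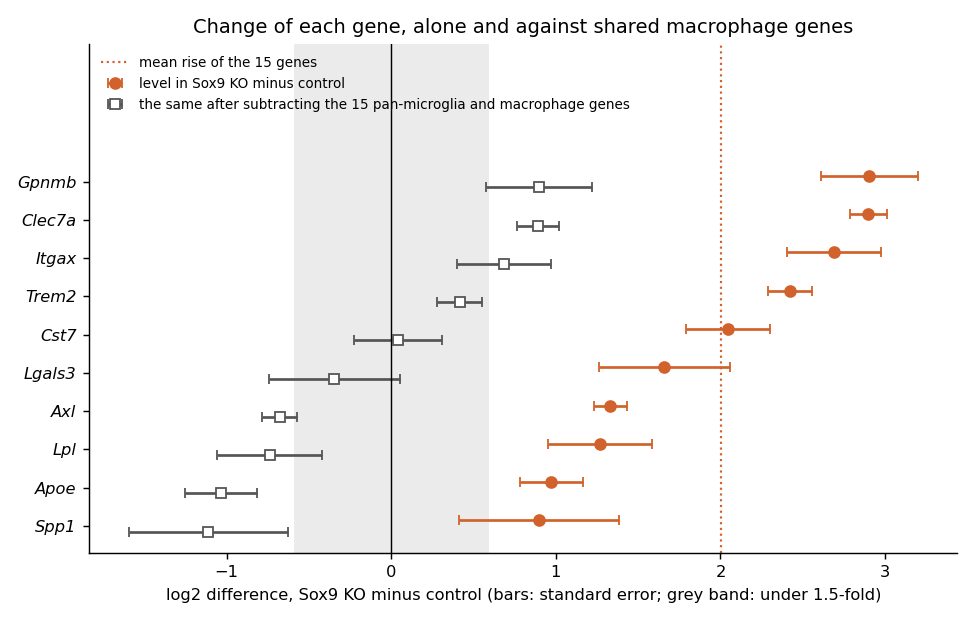
Log2 difference between Sox9 KO and control for each gene with its standard error, as a level (orange circles) and after subtracting the 15 pan-microglia and macrophage genes (open squares), with the mean rise of those genes dotted at 2.01. The relative values run from -1.11 for Spp1 to 0.90 for Gpnmb.

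**Figure D3:**
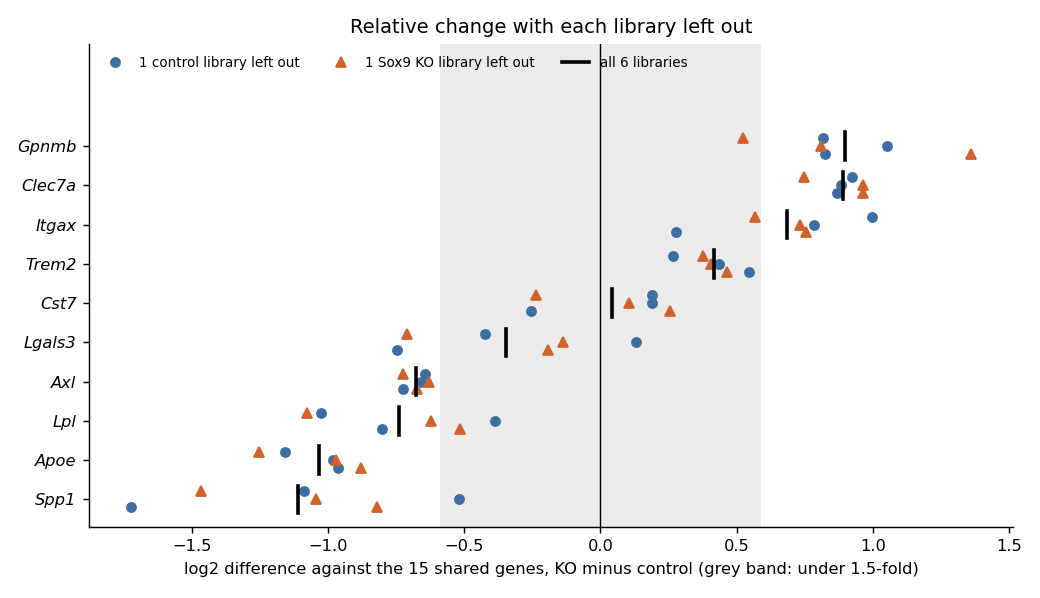
Relative log2 difference of each gene with all 6 libraries (bar) and with 1 control (circle) or 1 Sox9 KO library (triangle) left out, with the range under 1.5-fold in grey. Clec7a stays between 0.75 and 0.96, Axl between -0.73 and -0.63, and Spp1 between -1.72 and -0.52.

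Partner genes of the members were set beside them. Of 14 genes of TREM2 and C-type lectin signalling, 13 rose and none fell (median log2 fold change 1.82). Relative to the 15 genes, none of them was called higher and 4 were called lower (median -0.19). Tyrobp, the adaptor of TREM2, rose by 1.98 (SE 0.10, limma adjusted p = 9.0e-08), Syk, the kinase it recruits, by 1.88, and Card9, which carries dectin-1 signals, by 1.66. The log2 ratio of Trem2 to Tyrobp was -1.22, -1.54 and -2.06 in control and -1.19, -1.09 and -1.20 in KO, so the KO ratios were the higher ones, with control replicate 1 next to them. The log2 ratio of Clec7a to Syk was 0.87, 0.97 and 0.83 in control and 1.96, 1.67 and 2.10 in KO, a difference of 1.02 with no overlap. In all, 12 such ratios were computed, chosen after the values were seen and given with no test. In 4 the groups lay apart (Trem2 to Tyrobp, Clec7a to Syk, Clec7a to Card9 and Axl to Gas6), and in the other 8 they overlapped (Itgax to Itgb2, Axl to Mertk, Apoe to Abca1, Lpl to Lipa, Spp1 to Cd44, Cst7 to Ctsc, Gpnmb to Mitf and Lgals3 to Lgals3bp).

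Of the partners of Axl, Spp1, Itgax and Lgals3, 10 of 14 rose and 2 fell (median 1.14). Itgb2, the beta chain that pairs with Itgax, rose by 2.06 (SE 0.09, limma adjusted p = 3.0e-08), and the ratio of Itgax to Itgb2 overlapped between the groups. Of the TAM receptor family, to which Axl belongs, Mertk rose by 1.04 (SE 0.10, limma adjusted p = 8.5e-06) and Tyro3 fell by 3.06 on the log2 scale (SE 0.62, limma adjusted p = 0.0015). Gas6, the ligand of Axl, differed by 0.26, under 1.5-fold. The log2 ratio of Axl to Gas6 was -0.32, -0.12 and 0.13 in control and 1.11, 0.89 and 0.91 in KO. Of the osteopontin receptors, Cd44 rose by 1.98 and Itgb5 by 1.75, while Itgav differed by -0.02. Lgals1, the other galectin listed, fell by 1.22 (limma adjusted p = 0.0080), opposite to Lgals3.

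Lipid partners of Apoe and Lpl split. Of 17 tested, 6 rose and 4 fell (median 0.61). The cholesterol exporters Abca1 (1.01) and Abcg1 (0.79), the lysosomal lipase Lipa (1.95), Soat1, which esterifies cholesterol (1.67), the droplet coat gene Plin2 (0.73) and Npc2, a lysosomal cholesterol carrier (1.53), rose. The apolipoprotein receptors Lrp8 (-3.33) and Vldlr (-3.10), the lipoprotein cholesterol-esterifying enzyme Lcat (-3.59) and the lipase inhibitor Angptl4 (-2.36) fell. These values are log2 fold changes. The log2 ratio of Apoe to Abca1 stayed between 2.54 and 2.72 in all 6 libraries, with overlapping groups.

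All 8 genes of the cathepsin list around Cst7 rose (median 1.76), among them Ctss, a cathepsin of microglia (2.70), and Ctsc, a target of cystatin F (2.35). Of 14 transcription factors tied to DAM genes, 11 rose and 1 fell (median 1.62). Cebpa rose by 2.68, Mitf, a regulator of Gpnmb, rose by 1.88, and Bhlhe40 fell by 2.01 on the log2 scale (limma adjusted p = 2.1e-05). Relative to the 15 genes, 1 of the 14 was called higher and 6 lower (median -0.39). Spi1 is among both the 14 and the 15, so its relative value is in part a comparison with itself. The 1 called higher was Cebpa (0.67, limma adjusted p = 0.00025).

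Beyond the 10 members, all 8 other stage 1 DAM genes rose (median 1.64), with B2m at 2.33 and Ctsb at 1.62. Of 20 other stage 2 genes, 14 rose and 5 fell (median 1.40). The stage 2 genes with the widest rise were low in control. Atp6v0d2, a lysosomal proton pump subunit, read 17.5, 36.5 and 31.5 in control and 628, 1096 and 1051 in KO (log2 fold change 4.99, SE 0.31, limma adjusted p = 3.4e-07). Cd200r4, of the CD200 receptor family, read 49.7, 52.3 and 53.6 against 1013, 1279 and 1331 (log2 fold change 4.51, SE 0.17, limma adjusted p = 1.8e-08). Both exceeded the 15 genes, by 2.98 and 2.5 on the log2 scale. They were the only 2 of the 20 called higher relative to the 15 genes, while 10 were called lower (median -0.61). Of the 8 other stage 1 genes, 1 was called higher on that relative scale and 2 lower (median -0.36). In level, Ank (-1.28), Serpine2 (-1.48), Cadm1 (-0.65), Ch25h (-1.34) and Gm1673 (-1.53) fell.

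Homeostatic microglia genes rose alongside the members. Of 12, 11 rose and none fell (median 1.69), with Cx3cr1 at 2.07 and P2ry12, a receptor for ADP and a marker of surveying microglia, at 1.43, and their summed level was 123476 to 149198 in control and 391716 to 471703 in KO. Of the 10 border macrophage genes 3 rose and 5 fell (median -0.54). Among the 3 most abundant of them, Mrc1 rose by 0.70 and Stab1 by 1.35, and F13a1 fell by 0.79. The summed level of the 10 was 18956 to 28765 in control and 31534 to 37970 in KO. Of 9 monocyte and dendritic cell genes 3 rose and 1 fell, of 7 T and NK cell genes 2 rose, of 4 B cell genes 1 rose, and of 7 neutrophil genes 5 fell. The neutrophil genes stood out in control replicate 2, where S100a8 read 1721 against 213 and 344 in the other control libraries and 173, 55.3 and 77.5 in the KO libraries, and every KO library lay below every control library for 3 of the 7. Control replicate 2 was also the highest control library for Lpl, Spp1, Gpnmb and Lgals3, and without it all 10 members were called higher. Among the remaining lists, 8 of 10 neuron genes, 7 of 9 olfactory ensheathing cell genes, 7 of 8 oligodendrocyte genes, 8 of 8 oligodendrocyte precursor genes and 5 of 8 mural cell genes fell, with none higher, and of 8 endothelial genes 2 rose and 3 fell. The part of any of these cell types in the members' values was not tested.

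**Figure D4:**
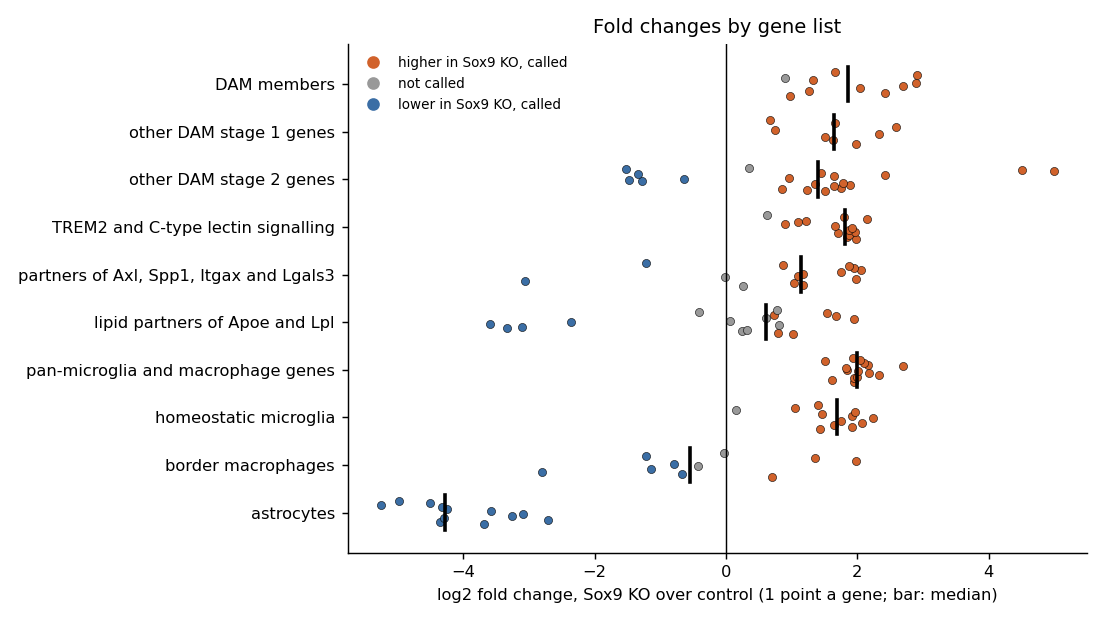
Log2 fold change of each gene by list, orange where called higher, blue where called lower and grey where not called, with a bar at the list's median. The DAM genes (median 1.85), the pan-microglia and macrophage genes (median 1.995) and the homeostatic genes (median 1.69) lie to the right, and the astrocyte genes (median -4.27) to the left.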

How the data were processed

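RNA was sequenced from TurboRFP-positive olfactory bulb cells of 3 control and 3 Sox9 KO samples. The authors aligned reads to mm10 (STAR 2.5.0a), took gene counts with GenomicFeatures and GenomicAlignments, and scaled these in DESeq2 1.20.0. For annotation and strand, the sources used here say nothing. Though named RPM, the deposited signal values are whole reads over a single size factor for each library: 100% were whole multiples of 1 read within 0.01 read. They are called normalized counts. Depth was 18242129 to 86906527 reads on genes.

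Genes with a mean of at least 1 (18413, with 6008 left out) were put on a log2(normalized count + 1) scale and compared by limma 3.58.1 (R 4.3.3) with a variance trend, two-sided and Benjamini-Hochberg adjusted over all genes tested. Fold changes on this scale understate low genes. A gene was called at an adjusted p under 0.05 and at least 1.5-fold. The relative fit subtracted the mean log2 level of 15 pan-microglia and macrophage genes in each library. edgeR 4.0.16 and DESeq2 1.42.0 on recovered reads, other pseudocounts, filters, scalings, reference lists, a replicate block and left-out libraries were alternatives. The fits were run on simulated reads in which few genes changed, as many up as down. That setting is unlike these data, in which 51.0% of genes tested were called, so it does not check the calls made here. Members and lists were chosen with earlier results of these data known. Named genes were the members, Sox9, the 3 most abundant genes of each list and called genes of the partner lists. Itgav, and each ratio of a member to a partner gene, was added with the values in view. Coordinates are from GENCODE M21 and RefSeq, GRCm38. Replicates are taken as separate mice from the methods.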

Additional observations from a re-analysis of the deposited data

How the results depend on the processing

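With 3 libraries a group, calls near the threshold rested on single libraries. The count of members called higher was 8 to 10 under every alternative run for it, none was called lower, and Sox9 stayed between -6.87 and -6.34 on the log2 scale. Of all genes, 4090 were called higher, and 2629 with libraries scaled to the same total without Rn45s. Scaling moved the median of all genes by 0.27 (quantile), -0.23 (same total) and -0.31 (without Rn45s), and the share of calls that were lower was 56.4%, 43.2%, 67.8% and 71.5% in the order main, quantile, same total, without Rn45s. Relative to the 15 pan-microglia and macrophage genes, the 4 members called lower became 2 with a pseudocount of 0.1, a minimum mean of 10, no minimum mean or no variance trend, and 0 against the homeostatic or the border macrophage genes. The 3 called higher became 1 without a variance trend and 10 against the border macrophage genes, whose subtraction raised the difference of every gene. With 1 library left out, 1 to 2 were called higher and 2 to 4 lower. Values that reversed were Lgals3 against the homeostatic genes (0.075), Apoe (1.28), Lpl (1.57), Axl (1.63), Spp1 (1.1995) and Lgals3 (1.96) against the border macrophage genes, Cst7 without control replicate 1 (-0.26) or KO replicate 3 (-0.24), and Lgals3 without control replicate 2 (0.13); with 1 library left out Cst7 ran from -0.26 to 0.25 and Lgals3 from -0.75 to 0.13. The cause was not tested. The replicate numbers did not pair the samples: same-numbered libraries correlated at -0.05, -0.01 and -0.01. With the replicate block 9 members were called higher, and relative to the 15 genes 3 higher and 3 lower, where Lpl was the call lost (adjusted p = 0.052).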
